A study of Mus musculus and Acomys cahirinus with 84 samples.

Results

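A set of 10 p53 target genes with roles in cell death was followed in irradiated skin fibroblasts: Bax, Bbc3, Pmaip1, Fas, Tnfrsf10b, Eda2r, Apaf1, Aen, Perp and Phlda3. They were taken by symbol, and each had exactly 1 row among the 56980 rows of the mouse count table and 1 row among the 19818 rows of the table of the African spiny mouse, Acomys cahirinus. Primary skin fibroblasts came from mice labelled C56BL6, from wild mice and from A. cahirinus, with 28 libraries per population. One set was collected 24 h after gamma irradiation with 0, 10 or 20 Gy. The other was collected at 12 d and had the same doses plus an untreated group that the labels call passaged. Each of the 21 groups held 4 libraries, numbered 1 to 4, and the library names give each number 1 animal code within a population. By these names, numbers stand for cultures of different animals within a population, and they name different animals in different populations. The labels give no genotype, age, sex or dose rate, and do not say how the passaged cultures were handled. The labels put the 24 h libraries in one batch and the 12 d libraries in a second, so the effects of batch and of time cannot be separated, and tests were made within 24 h or within 12 d only.

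The transcription factor p53 is stabilised after DNA breaks and activates genes that halt the cell cycle, feed back on p53 itself or prepare the cell for death. Its death targets act at several points: BCL2 family proteins open the outer mitochondrial membrane, death receptors of the TNF receptor family relay signals from outside the cell, and APAF1 assembles the apoptosome that activates caspase-9. Fibroblasts are known to answer ionising radiation mostly with lasting arrest, and expression of these genes does not by itself show that cells die. In bulk RNA, fewer cells of a type and less RNA per cell cannot be told apart.

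Sequences matching the p53 consensus decamer, the 10-base unit that occurs in pairs in a p53 response element, are shown as a description of the genes. The genes were chosen as p53 targets, a label that can rest on such elements. The share of them with a match is therefore no independent support for that label. The decamer reads as the same consensus on both strands. In GENCODE annotation of GRCm39, the build of the mouse table, 4 of the 10 genes (Bax, Bbc3, Pmaip1 and Aen) held an exact decamer between 250 bases before and 50 bases after the start of the canonical transcript. The matched Pmaip1 sequence is not shown. The same window held one in 1713 of 21751 protein-coding genes (7.88%). A match is a description of the letters and not a measured binding site. Capitals mark the decamer.
Bax, chr7:45116489-45116548, minus strand, decamer at -198 to -189 from the start: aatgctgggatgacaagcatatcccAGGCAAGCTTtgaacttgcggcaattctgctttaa
Bbc3, chr7:16042603-16042662, plus strand, decamer at -43 to -34: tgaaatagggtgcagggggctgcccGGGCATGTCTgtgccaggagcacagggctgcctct
Aen, chr7:78545675-78545704, plus strand, decamer at bases 11 to 20 of the transcript: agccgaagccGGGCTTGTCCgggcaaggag

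A pair of decamers with at most 1 mismatch and a spacer of up to 13 bases was looked for within 2000 bases on each side of the start. It was found for 3 of the 10 genes (Bax, Pmaip1 and Eda2r), against 18.3% of all protein-coding genes. Bax held 3 such pairs, of which 2 lie in intron 3, and the one upstream overlaps the decamer above, with 1 base between its units. The Eda2r pair lies in intron 1 with no spacer and is shown because Eda2r had the largest change at 24 h in the spiny mouse. No match for Fas, Tnfrsf10b, Apaf1, Perp or Phlda3 says only that these letters are not in these windows. Capitals mark both units of a pair.
Bax, pair starting at -209: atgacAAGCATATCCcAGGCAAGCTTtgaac
Eda2r, pair at chrX:96420297-96420316, minus strand, starting at base 524 from the transcript start: gctggGAATATGCCCGGACTTGTCCaacaa

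Levels are given in CPM, the usual unit of counts scaled to a fixed library total, here the total mapped to genes after TMM scaling within each count table, and a difference is a log2 fold change from edgeR with its standard error. Total counts per library were 26653561 to 39819857 in C56BL6, 17419339 to 35984517 in wild mice and 25552727 to 52857478 in A. cahirinus, so that 3 counts correspond to 0.058 to 0.193 CPM. Libraries of 1 number deviated together from their group means (mean r of 0.56 to 0.93 across genes), and each comparison was therefore fitted without and with the number as a block. These are called the unpaired and the paired fit below, and a gene rose or fell where its adjusted p was under 0.05 in the fit named. The unpaired fit is the main test. Beside the counts of the 10 genes, the percentage of all tested genes called in the same direction is given.

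Several libraries stood apart. The wild 10 Gy library number 1 at 24 h had the lowest total and 17843 detected genes, the fewest of any mouse library. Wild libraries labelled number 1 at 12 d did not match those labelled number 1 at 24 h: 64 genes were at 1 CPM or more in all libraries of one and under 0.1 CPM in all of the other. Between wild numbers 1 and 4 at 12 d there were 0 such genes, against 22 to 83 between other wild numbers at 12 d, and there were also 0 between number 4 at 24 h and number 1 at 12 d. A count of 0 was also found between different numbers in C56BL6 (3 and 4 at both times) and in A. cahirinus (1, 2 and 3 at 12 d), so it does not by itself mark 1 animal. No pair of A. cahirinus numbers had more than 8 such genes, however, whereas wild numbers 1 and 4 had 88 at 24 h. Whether the 12 d wild libraries labelled 1 and 4 come from 1 animal was not tested, and wild results are also given without number 1, a choice made after this was seen. In cell type, fibroblast markers summed to 8108 to 84161 CPM over all libraries, with 7 or 8 of 8 markers at a mean of at least 1 CPM in every group. C56BL6 number 1 also held 195.4 to 840.3 CPM of 7 keratinocyte markers, against 1.143 to 3.733 CPM in C56BL6 numbers 2 to 4. A. cahirinus cultures held 859.8 to 7569 CPM of 4 skeletal muscle markers (Myod1, Myog, Des and Myh3, all 4 at 1 CPM or more in every group), against 1.713 to 45.09 CPM in C56BL6 and 0.9818 to 1352 CPM in wild mice, where Des alone of the 4 reached a mean of 1 CPM. The highest wild value, 1352 CPM, was the 10 Gy library number 1 at 24 h. Wild number 1 was also high at 24 h in untreated cells (935.1 CPM) and after 20 Gy (775.9 CPM). Over all libraries labelled wild number 1 the median of Des was 6.57 CPM, and those at 12 d had at most that.

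**Figure D1:**
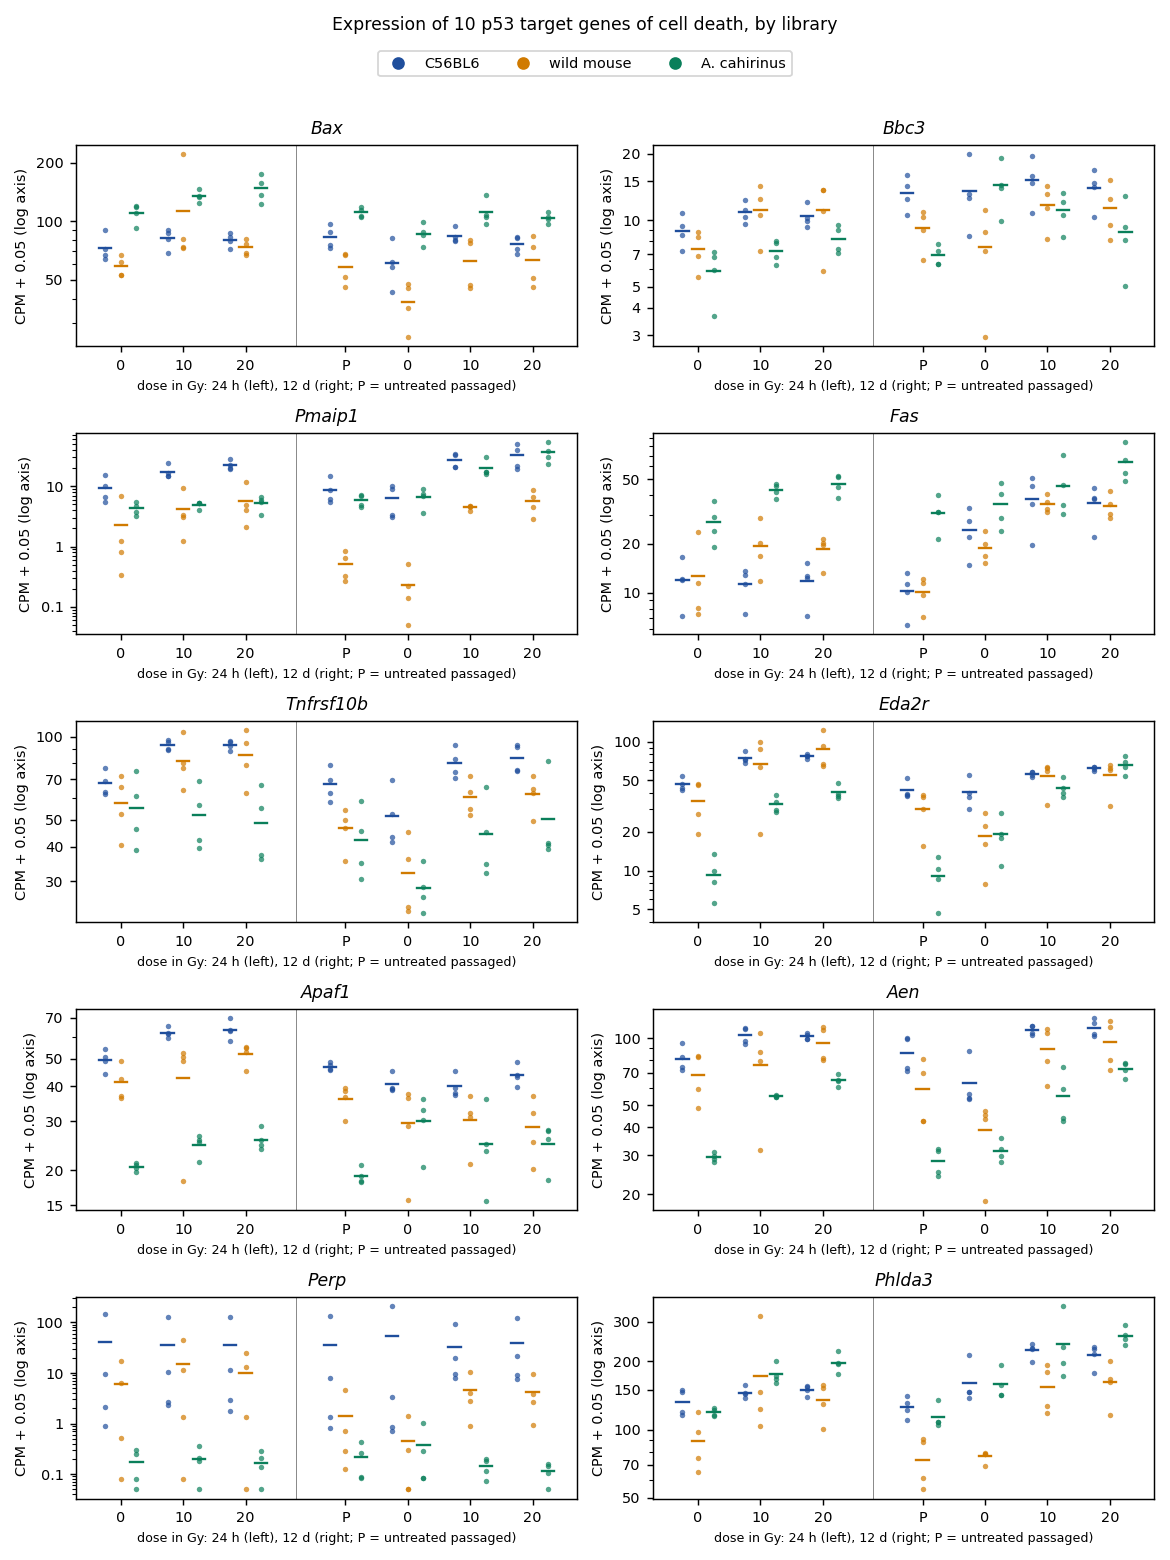
CPM plus 0.05 on a log axis for the 10 genes in all 84 libraries, by dose in Gy at 24 h and 12 d, with P for untreated passaged cells. Points are libraries and bars are group means. Pmaip1 at 12 d lies between 19.3 and 49.3 CPM after 20 Gy in C56BL6, against 3.06 to 10 CPM untreated, and Perp is high in 1 C56BL6 culture throughout.

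At 24 h, most of the 10 genes had higher values after irradiation, and how many passed the threshold depended on whether cultures were paired. After 20 Gy in C56BL6, 1 of 10 rose in the unpaired fit (Eda2r; 0.0826% of all genes) and 6 of 10 in the paired fit (Pmaip1, Tnfrsf10b, Eda2r, Apaf1, Aen and Phlda3; 8.2%). In wild mice, 0 of 10 passed the unpaired edgeR test (0% of all genes; 6 had an unadjusted p under 0.05, and DESeq2 called 1), while all 10 rose in the paired fit (7.36%). All 10 also rose there without number 1 (9.19%). Of these, Perp was near the floor in wild number 2, with 1 count untreated and 0 after 20 Gy. Pmaip1 had 9 counts in that culture untreated. In A. cahirinus, 9 genes passed the expression filter, Perp being too low. Of these, 4 rose in the unpaired fit (Eda2r, Apaf1, Aen and Phlda3; 0.89%) and 7 in the paired fit, which added Bax, Bbc3 and Fas (13.3%). Median log2 fold changes of the tested genes were 0.279, 0.591 and 0.514 in C56BL6, wild mice and A. cahirinus, beside -0.00581, 0.0101 and 0.0308 over all genes. The unpaired count in C56BL6 was 0 without number 2, 3 or 4, and in A. cahirinus 1 without number 1 or 3.

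The 10 Gy groups at 24 h share their untreated libraries with the 20 Gy groups. In C56BL6, 0 of 10 passed the unpaired edgeR test (0.007% of all genes higher; 5 had an unadjusted p under 0.05, and DESeq2 called 3) and 6 rose in the paired fit (5.42%). In A. cahirinus, 3 of 9 rose unpaired (0.634%) and 6 paired (15.2%). In wild mice, edgeR called 0 of 10 in either fit (0% of all genes in both; 3 and 7 had an unadjusted p under 0.05, and DESeq2 called 0). Without number 1, whose 10 Gy library stood apart, all 10 rose in the paired fit, against 11.5% of all genes. Perp in wild number 2 held 1 count untreated and 1 after 10 Gy.

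At 12 d, 4 of 10 rose after 20 Gy in C56BL6 in the unpaired fit (Pmaip1, Tnfrsf10b, Eda2r and Aen; 13% of all genes) and 7 in the paired fit, which added Bax, Fas and Phlda3 (23.2%). In wild mice, 0 of 10 passed the unpaired edgeR test (0.0278%; 8 had an unadjusted p under 0.05, and DESeq2 called 6). All but Bbc3 and Apaf1 rose in the paired fit (8 of 10; 7.66%), and 3 of 10 without number 1 (Pmaip1, Aen and Perp; 1.15%). Untreated wild libraries at 12 d held 0 to 14 counts of Pmaip1 and 0 to 40 of Perp. Both genes passed the expression filter only through the irradiated libraries, after 10 Gy too, so their calls are partly set by that filter. In A. cahirinus, 6 of 9 rose unpaired (Pmaip1, Fas, Tnfrsf10b, Eda2r, Aen and Phlda3; 13.8%). Bax joined them in the paired fit (7 of 9; 23.5%), where Bbc3 and Apaf1 fell (2 of 9; 25.7% of all genes lower). The share of the members that fell is below that of all genes. Unpaired counts were 0 without number 3 and 1 without number 4 in C56BL6, and 3 without number 1 in A. cahirinus. After 10 Gy, with the same untreated libraries, 4 of 10 rose in C56BL6 (10.3%; 7 paired, 19.2%) and 1 of 9 in A. cahirinus (1.29%; 7 paired, 14.2%, with 2 lower, 13.4%). In wild mice at 10 Gy, edgeR called 0 of 10 unpaired (0.174%; 8 had an unadjusted p under 0.05, and DESeq2 called 6), 9 paired (5.96%) and 4 paired without number 1 (1.42%).

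The fibroblast markers moved with irradiation at 12 d too. Their sum was 25892 to 47370 CPM in untreated C56BL6 libraries and 8108 to 12212 CPM after 20 Gy. Of the 8, 5 fell in the unpaired fit (median log2 change -1.61), against 13.6% of all genes. In the paired fits at 12 d, 6 of 8 fell in C56BL6 (24.3% of all genes lower) and 3 of 8 in wild mice (7.79%). In A. cahirinus 3 of 8 fell (25.7%) and 2 rose, the latter near the 23.5% of all genes. At 24 h, 0 of them passed the unpaired edgeR test. In the paired fits at 24 h, 5 of 7 tested fell in C56BL6 (9.45% of all genes lower) and 4 of 7 in wild mice (5.19%). The paired fit of A. cahirinus had 2 of 8 higher (13.3% of all genes) and 0 lower. Markers of other cell types moved as well at 12 d. Of 5 leukocyte markers only Cd68 and Csf1r were tested. Ptprc, Adgre1 and Cd3e were too low, with at most 0.181, 0.053 and 0.0301 CPM in C56BL6. The tested ones rose in C56BL6 (2 of 2, unpaired; median log2 change 1.3), and in A. cahirinus 1 of 2 rose unpaired and 2 of 2 paired. Of 3 endothelial markers tested, 1 rose in C56BL6 and 2 in A. cahirinus unpaired (median 0.391 and 1.53), and 2 in wild mice paired (median 1.98). Of the pericyte markers tested, 2 of 3 rose in C56BL6, 1 of 2 in wild mice and 2 of 2 in A. cahirinus in the paired fits. Among all genes, 13% rose in C56BL6 and 13.8% in A. cahirinus unpaired. In the paired fits 23.2% rose in C56BL6, 7.66% in wild mice and 23.5% in A. cahirinus. The part of these markers in the changes of the death genes was not tested.

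**Figure D2:**
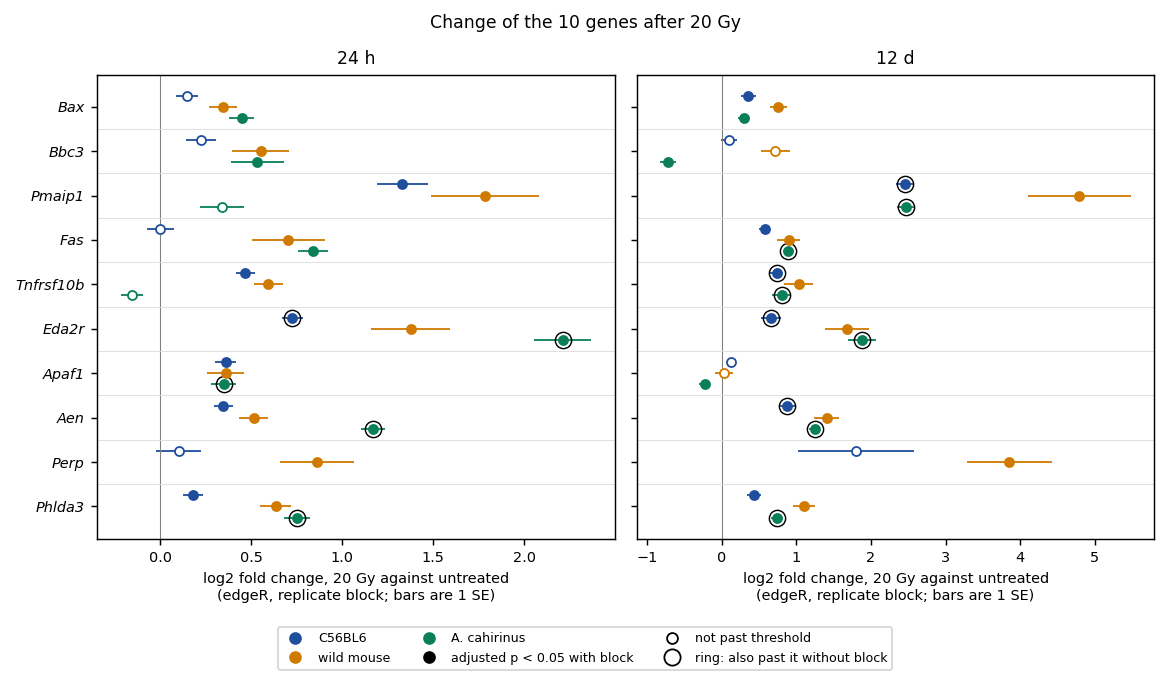
Log2 fold change of each gene, 20 Gy against untreated, from the paired edgeR fit with 1 standard error, at 24 h and at 12 d. Filled points passed an adjusted p of 0.05 in that fit and rings mark genes that also passed it without pairing. Eda2r in A. cahirinus is the highest point at 24 h, and Perp was not tested in A. cahirinus.

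Among the mitochondrial members, Pmaip1 had the largest change in mice. Pmaip1 (chromosome 18) encodes NOXA, a BH3-only protein that neutralises MCL1. At 24 h in C56BL6, untreated libraries 1 to 4 had 15.3, 9.88, 6.51 and 5.52 CPM and libraries after 20 Gy had 27.6, 19.4, 22.2 and 20.1 CPM. The groups did not overlap, and number 1 was the highest in both. The log2 fold change was 1.27 (SE 0.30), adjusted p = 0.188 unpaired, and 1.33 (SE 0.14), adjusted p = 2.99e-05 paired. Wild libraries went from 6.73, 0.288, 0.751 and 1.2 CPM to 11.8, 2.08, 4.92 and 4.01 CPM. Each wild culture was higher after 20 Gy, but the groups overlapped because number 1 had more untreated than 3 others had after irradiation. In the paired fit the log2 change was 1.78 (SE 0.29), adjusted p = 0.00314, and unpaired the adjusted p was 1. A. cahirinus had 5.44, 3.17, 4.64 and 3.74 CPM untreated and 6.48, 3.33, 5.36 and 5.92 CPM after 20 Gy. These groups overlapped, and neither fit called the gene (log2 0.34, SE 0.23, adjusted p = 0.515 unpaired; adjusted p = 0.0682 paired).

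At 12 d, Pmaip1 was higher after 20 Gy in all 3 populations and no group overlapped with its untreated libraries. C56BL6 had 10, 8.85, 3.24 and 3.06 CPM untreated and 49.3, 39.8, 21.4 and 19.3 CPM after 20 Gy, a 5.2-fold rise (log2 2.38, SE 0.50, adjusted p = 0.0113). A. cahirinus had 8.94, 3.54, 6.86 and 7.32 CPM and 53.9, 22.9, 38.4 and 30.3 CPM, a 5.54-fold rise (log2 2.47, SE 0.34, adjusted p = 0.00139). In both populations number 1 had the highest value in both groups. Untreated wild libraries had 0, 0.0893, 0.472 and 0.176 CPM, from 0, 2, 14 and 5 counts, and those after 20 Gy had 6.64, 4.46, 2.82 and 8.57 CPM. The wild rise passed the test in the paired fit with number 1 (adjusted p = 0.00941) and without it (0.0418), but not unpaired (0.0764), and no fold is given against so low a level. Pmaip1 passed the expression filter there only through the irradiated libraries, and in the comparison that follows only through C56BL6. Untreated wild cultures were below C56BL6 ones at 12 d: with 1.29% of all genes lower, 2 of 10 passed the test (Pmaip1, adjusted p = 0.0249, and Phlda3, -1.09 (SE 0.16), adjusted p = 0.00896). With 1 number left out of both populations the count was 1 without number 1 or 2, 2 without number 3 and 0 without number 4, and the adjusted p ranged over 0.0244 to 0.175 for Pmaip1 and 0.0117 to 0.0788 for Phlda3. At 24 h, edgeR called 0 of 10 between the untreated mouse populations (2.38% of all genes lower; 3 had an unadjusted p under 0.05, and DESeq2 called 0).

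Bbc3 (chr7:16042318-16052130, plus strand) encodes PUMA, a BH3-only protein that binds all antiapoptotic BCL2 proteins. Its values after 20 Gy at 24 h overlapped with the untreated ones in each population, and it rose only in the paired fits of wild mice (log2 0.55, SE 0.16, adjusted p = 0.0405) and A. cahirinus (log2 0.53, SE 0.14, adjusted p = 0.0235). At 12 d it went the other way in A. cahirinus. Its libraries had 13.9, 9.87, 14.3 and 19.1 CPM untreated and 9.28, 4.99, 8.09 and 12.8 CPM after 20 Gy. Each culture was lower after irradiation although the groups overlapped, and Bbc3 fell in the paired fit (log2 -0.72, SE 0.11, adjusted p = 0.00186) but not unpaired (adjusted p = 0.109). In C56BL6 at 12 d the ranges were 8.4 to 19.9 CPM untreated and 10.3 to 16.8 CPM after 20 Gy, with no call in either fit.

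Bax (chr7:45111015-45116325, minus strand), the effector that forms pores in the outer mitochondrial membrane, changed by less than 1 log2 unit in every comparison with untreated cells at 20 Gy. Unpaired it passed no test against unpassaged untreated cells at either dose. In the paired fits at 20 Gy and 24 h its log2 change was 0.34 (SE 0.077), adjusted p = 0.0144 in wild mice and 0.45 (SE 0.070), adjusted p = 0.00155 in A. cahirinus, and it did not pass in C56BL6 (adjusted p = 0.115). At 12 d the paired changes were 0.35 in C56BL6, 0.76 in wild mice and 0.29 in A. cahirinus (adjusted p = 0.0308, 0.0111 and 0.0193). Without number 1 the wild adjusted p was 0.0724. The wild 10 Gy library number 1 at 24 h had 222 CPM of Bax, against 73.2 to 80.7 CPM in the other 3.

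Of the TNF receptor family, Eda2r was higher after 20 Gy in each culture of all 3 populations at both times. Eda2r (chrX:96320270-96420847, minus strand) encodes XEDAR, the receptor of ectodysplasin A2. At 24 h in A. cahirinus, untreated libraries had 9.83, 13.4, 8.1 and 5.54 CPM and those after 10 Gy had 38.8, 29.4, 33.7 and 28.6 CPM. After 20 Gy they had 47.6, 37.9, 39.3 and 36.7 CPM. Every irradiated library exceeded every untreated one, and the change at 20 Gy was 4.46-fold (log2 2.16, SE 0.25, adjusted p = 0.00468). C56BL6 had 42, 54.4, 46.9 and 44 CPM untreated and 73.5, 77.2, 77.1 and 79.5 CPM after 20 Gy. These groups did not overlap either, and the log2 change was 0.72 (SE 0.080), adjusted p = 0.0307. The unpaired call in C56BL6 was lost without number 2, 3 or 4, the adjusted p ranging from 0.0263 to 0.463 with 1 number left out, and in A. cahirinus it was lost without number 1 or 3, reaching 0.111. Wild libraries went from 46.7, 27.2, 19.1 and 46.4 CPM to 65.1, 123, 67.5 and 92 CPM. The groups did not overlap, and the paired log2 change was 1.38 (SE 0.22), adjusted p = 0.00251.

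At 12 d, no 20 Gy group of Eda2r overlapped with its untreated group. A. cahirinus had 28.1, 19.3, 17.8 and 10.7 CPM untreated and 77.8, 53.9, 69.3 and 64 CPM after 20 Gy (log2 1.82, SE 0.27, adjusted p = 0.00178). C56BL6 had 30, 55.1, 37.2 and 39.7 CPM and 63.7, 63.9, 61 and 59 CPM (log2 0.62, SE 0.17, adjusted p = 0.0285). The 4 irradiated C56BL6 cultures lay within 59 to 63.9 CPM, a narrower range than the untreated ones. Wild mice had 22, 7.81, 15.9 and 27.8 CPM and 62.4, 60.4, 31.9 and 65.9 CPM, with number 3 lowest after irradiation. The wild change passed only in the paired fit (log2 1.68, SE 0.30, adjusted p = 0.0151) and not without number 1 (adjusted p = 0.0767).

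Fas (chr19:34268001-34305173, plus strand) encodes the death receptor CD95. At 24 h its calls within populations differed. In the direct tests of a difference given below, the unpaired fit did not call Fas. The paired fit called it in A. cahirinus against C56BL6, and in wild mice against C56BL6 only without number 1. C56BL6 had 7.16, 16.4, 12.1 and 11.9 CPM untreated and 7.13, 15.2, 12.7 and 12.2 CPM after 20 Gy, with number 1 lowest in both groups. No change was detected there (log2 -2.2e-04, SE 0.076, adjusted p = 0.999 paired). A. cahirinus had 29.2, 36.6, 23.9 and 19 CPM and 51.4, 52.6, 44.7 and 38.3 CPM, without overlap. It rose in the paired fit (log2 0.84, SE 0.082, adjusted p = 6.47e-05), and unpaired the adjusted p was 0.0825. In wild mice Fas was higher in 3 of 4 cultures and rose in the paired fit (log2 0.70, SE 0.20, adjusted p = 0.0408).

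At 12 d, Fas was higher after 20 Gy in each culture of every population. Irradiated C56BL6 libraries had 22.1, 44.2, 37.6 and 38.5 CPM against 14.8, 33.2, 22 and 27.4 CPM untreated, which overlapped because number 1 stayed lowest. The paired change was 0.58 (SE 0.077), adjusted p = 0.00177. A. cahirinus went from 40.7, 47.2, 29 and 24 CPM to 66, 84.8, 54.9 and 48.6 CPM, without overlap (log2 0.87, SE 0.25, adjusted p = 0.0283). In wild mice the ranges were 15.2 to 23.8 CPM and 28.7 to 42.5 CPM, with a paired change of 0.90 (SE 0.16), adjusted p = 0.0148, and 0.0893 without number 1.

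Tnfrsf10b (chr14:70004916-70021860, plus strand) encodes the mouse receptor of the death ligand TRAIL. At 24 h in C56BL6 it had 69.2, 76.8, 61.9 and 63.2 CPM untreated and 92.6, 95.6, 96 and 88.6 CPM after 20 Gy. The groups did not overlap, and the gene rose in the paired fit (log2 0.47, SE 0.052, adjusted p = 4.82e-05; unpaired 0.0713). Wild mice showed a paired rise of 0.59 (SE 0.079), adjusted p = 0.00118. Libraries of A. cahirinus at 24 h had 60.7, 75.3, 46.4 and 38.8 CPM untreated and 55, 66.7, 37.2 and 36.1 CPM after 20 Gy. All 4 cultures were lower after irradiation, by less than the spread between cultures, and neither fit called the gene (paired log2 -0.16, SE 0.061, adjusted p = 0.0858). At 12 d Tnfrsf10b rose in A. cahirinus, from 28.6, 35.5, 22.9 and 26.1 CPM to 40.3, 81.3, 41.2 and 39.1 CPM (log2 0.86, SE 0.26, adjusted p = 0.0376). Number 2 was the highest in both groups and there was no overlap. C56BL6 rose as well at 12 d (log2 0.71, SE 0.17, adjusted p = 0.0199).

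Apaf1 (chr10:90825173-90918686, minus strand), the scaffold of the apoptosome, rose by less than 1 log2 unit after 20 Gy at 24 h and rose in no population at 12 d. After 20 Gy at 24 h its log2 change was 0.35 (SE 0.076), adjusted p = 0.0428 in A. cahirinus, where untreated libraries lay within 19.7 to 21.3 CPM and irradiated ones within 23.8 to 28.8 CPM. This unpaired call was lost without any 1 of the 4 numbers (adjusted p = 0.069 to 0.328). C56BL6 (log2 0.36, SE 0.058, adjusted p = 7.99e-04) and wild mice (log2 0.36, SE 0.10, adjusted p = 0.0444) passed in the paired fit. At 12 d the paired change was 0.12 (SE 0.054), adjusted p = 0.106 in C56BL6 and 0.031 (SE 0.12), adjusted p = 0.88 in wild mice, and in A. cahirinus Apaf1 fell (log2 -0.23, SE 0.075, adjusted p = 0.0376).

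Aen (chr7:78545602-78560957, plus strand) encodes an exonuclease that p53 induces in apoptosis. In A. cahirinus at 24 h its untreated libraries had 29.6, 27.8, 30.8 and 28.9 CPM. After 10 Gy they had 55.5, 55.3, 54.4 and 54.5 CPM, and after 20 Gy 60.3, 69.4, 64.8 and 64.2 CPM. The 3 doses did not overlap, and the change at 20 Gy was 2.25-fold (log2 1.17, SE 0.073, adjusted p = 6.01e-04). With 1 number left out the adjusted p ranged from 0.00151 to 0.0498. In C56BL6 the ranges were 72.1 to 95.5 CPM and 99.3 to 106 CPM, a paired change of 0.35 (SE 0.052), adjusted p = 4.98e-04. In wild mice the paired change was 0.51 (SE 0.079), adjusted p = 0.00234.

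At 12 d Aen was higher after 20 Gy in every culture and no group overlapped. A. cahirinus had 35.8, 32, 27.7 and 29.7 CPM untreated and 76.6, 77.2, 72.1 and 65.9 CPM after 20 Gy (log2 1.24, SE 0.10, adjusted p = 2.07e-04, 1.49e-04 to 0.00807 with 1 number left out). C56BL6 had 53.8, 87.4, 56.5 and 53.4 CPM and 117, 123, 105 and 101.9 CPM (log2 0.84, SE 0.17, adjusted p = 0.00991). Number 2 was the highest in both C56BL6 groups. Wild mice had 47.1, 18.6, 43.3 and 45.4 CPM and 112, 72.1, 79.8 and 120 CPM, with number 2 lowest in both. The wild change passed in the paired fit (log2 1.40, SE 0.17, adjusted p = 0.00579) and also without number 1 (adjusted p = 0.041).

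Phlda3 (chr1:135693809-135697686, plus strand) encodes a pleckstrin-homology protein that restrains AKT. In A. cahirinus at 24 h it went from 125, 116, 122 and 114 CPM to 175, 222, 198 and 195 CPM, without overlap (log2 0.76, SE 0.089, adjusted p = 0.00468). In C56BL6 the ranges of 116 to 149 CPM and 139 to 155 CPM overlapped, and it passed in the paired fit with a smaller value (log2 0.18, SE 0.055, adjusted p = 0.038). The wild change at 24 h was 0.63 (SE 0.085), adjusted p = 0.00118 in the paired fit. At 12 d A. cahirinus had 158, 193, 142 and 142 CPM and 251, 289, 237 and 261 CPM, again without overlap (log2 0.73, SE 0.12, adjusted p = 0.00333). Wild libraries rose from 78.3, 69.1, 78.9 and 77.7 CPM to 201, 162, 116 and 168 CPM in the paired fit (log2 1.10, SE 0.14, adjusted p = 0.00725). Every irradiated wild library exceeded every untreated one, and without number 1 the adjusted p was 0.0509. The C56BL6 change at 12 d was 0.43 (SE 0.097), adjusted p = 0.0119 paired, and unpaired the adjusted p was 0.0836.

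Perp (chr10:18720715-18732821, plus strand) encodes a tetraspan protein of desmosomes that is abundant in stratified epithelia. Its level differed more between cultures than between doses. C56BL6 number 1 held 95 to 210 CPM over its 7 libraries, and numbers 2 to 4 at 24 h, untreated, held 9.59, 2.11 and 0.859 CPM. The same culture held 3 of the 7 keratinocyte markers: Krt14 was 132 to 422 CPM and Krt5 60.9 to 416 CPM in number 1, against at most 0.0747 and 1.21 CPM in numbers 2 to 4, and Dsg3 was 0.374 to 1.76 CPM against at most 0.106 CPM. The other 4 markers were not raised: in number 1 the medians were 0 CPM for Krt1 and Epcam, 1.41 CPM for Krt10 and 0.334 CPM for Cdh1, with 1.28 to 1.49 CPM of Krt10 and 0.204 to 0.288 CPM of Cdh1 in numbers 2 to 4. In number 1 at 12 d, Perp was 209.9 CPM untreated and 122 CPM after 20 Gy, while the 7 markers summed to 840.3 and 250.1 CPM. Whether keratinocytes account for Perp in that culture was not tested. In C56BL6 numbers 2 to 4, Perp was 3.25, 0.794 and 0.662 CPM untreated and 21.8, 9.27 and 7.75 CPM after 20 Gy. Without number 1 the unpaired log2 change was 3.06 (SE 0.67), adjusted p = 0.0112, and with all 4 numbers it was -0.40 (SE 1.75), adjusted p = 0.889, or 1.80 (SE 0.78), adjusted p = 0.1 paired.

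In wild cultures at 12 d Perp was lower but also higher after irradiation. Untreated libraries had 0, 0, 1.35 and 0.246 CPM, from 0, 0, 40 and 7 counts, and libraries after 20 Gy had 2.66, 0.892, 9.53 and 3.88 CPM. Each culture was higher after irradiation, and Perp rose in the paired fit with number 1 (adjusted p = 0.00978) and without it (0.0386), but not unpaired (0.32). Perp passed the expression filter there only through the irradiated libraries. The 7 keratinocyte markers summed to at most 5.027 CPM in any wild library. In A. cahirinus the highest of 28 libraries held 0.98 CPM of Perp, the next highest 0.384 CPM, so Perp was not tested there.

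**Figure D3:**
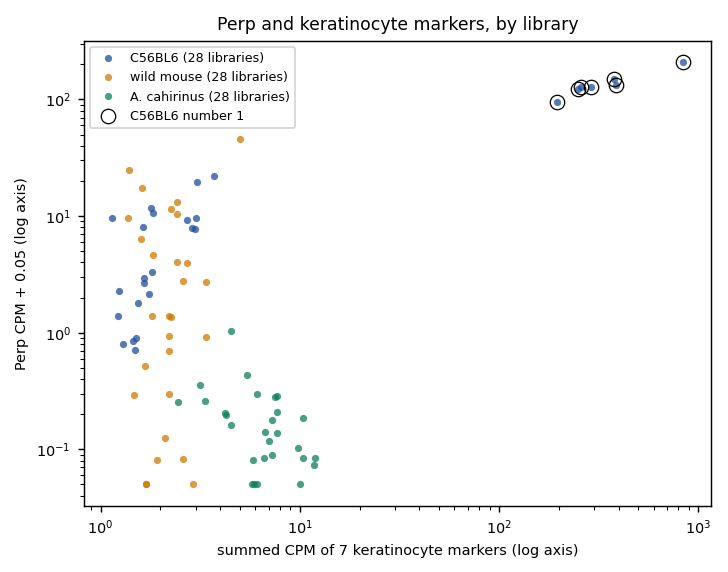
Perp CPM plus 0.05 against the summed CPM of 7 keratinocyte markers in 84 libraries, both on log axes, with circles around C56BL6 number 1. The 7 circled libraries have 95 to 210 CPM of Perp and 195.4 to 840.3 CPM of the markers, and lie apart from all others.

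Differences between populations in the change after 20 Gy were tested directly as interactions. Those with A. cahirinus used the 18109 symbols found once in both tables, and leaving out a number here removes it from both populations. They share the libraries of each population, so their values are listed side by side. With A. cahirinus, Perp is among the 10 genes only because mouse libraries carried it past the expression filter. At 24 h, against C56BL6, A. cahirinus had larger changes of 3 of 10 genes in the unpaired fit (0.199% of all genes): Eda2r (log2 1.43, SE 0.27, adjusted p = 0.0107), Aen (log2 0.82, SE 0.11, adjusted p = 0.00222) and Phlda3 (log2 0.57, SE 0.13, adjusted p = 0.031). The paired fit added Fas among the larger changes (log2 0.83, SE 0.11, adjusted p = 7.22e-05; 8.79% of all genes). It also called smaller changes of Pmaip1 (log2 -1.003, SE 0.22, adjusted p = 0.0047) and Tnfrsf10b (log2 -0.63, SE 0.080, adjusted p = 4.17e-05), with 7.96% of all genes lower. All 3 unpaired calls were lost without number 3.

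Against wild mice at 24 h, edgeR called 0 of 10 unpaired (0% of all genes; 1 had an unadjusted p under 0.05, and DESeq2 called 0). The paired fit called a larger change of Aen in A. cahirinus (log2 0.65, SE 0.10, adjusted p = 0.00185; 2.9% of all genes). Pmaip1 (log2 -1.39, SE 0.35, adjusted p = 0.0262) and Tnfrsf10b (log2 -0.76, SE 0.0997, adjusted p = 4.92e-04) changed less than in wild mice (4.35%). These 3 also passed without number 1 (adjusted p = 0.00801, 0.00482 and 0.00123). Between wild mice and C56BL6, edgeR called 0 of 10 in either fit (0.544% of all genes higher in the paired fit; 0 and 4 had an unadjusted p under 0.05, and DESeq2 called 0). Without number 1, the paired fit called larger changes of Fas (log2 1.02, SE 0.15, adjusted p = 0.003), Eda2r (log2 0.97, SE 0.22, adjusted p = 0.0227) and Phlda3 (log2 0.51, SE 0.10, adjusted p = 0.0126) in wild mice, beside 2.64% of all genes.

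At 12 d, Eda2r was the only 1 of 10 called in the unpaired fit of A. cahirinus against C56BL6 (log2 1.20, SE 0.33, adjusted p = 0.0205; 8.11% of all genes), and it was lost without number 3 or 4. In the paired fit Fas also changed more (log2 0.32, SE 0.11, adjusted p = 0.0414; 17.6%), and Bbc3 (log2 -0.81, SE 0.16, adjusted p = 0.00308) and Apaf1 (log2 -0.35, SE 0.086, adjusted p = 0.00995) had lower changes (20.4%). The paired counts, 2 of 10 in each direction, and the unpaired count are near the percentages of all genes. They show no difference particular to the set. Against wild mice, edgeR called 0 of 10 unpaired (2.15% of all genes lower; 3 had an unadjusted p under 0.05, and DESeq2 called 2). The paired fit called Bbc3 (log2 -1.42, SE 0.24, adjusted p = 0.00335; 13.1%), and Bbc3 also passed without number 1 (adjusted p = 0.028). The paired fit called Pmaip1 and Perp too. Untreated wild libraries held 0 to 14 counts of Pmaip1. Perp had 0 to 34 counts in A. cahirinus and entered the test only through the wild libraries. Its call therefore says nothing of a response in A. cahirinus. Between wild mice and C56BL6, edgeR called 0 of 10 in either fit (0.0628% of all genes higher in the paired fit; 3 and 6 had an unadjusted p under 0.05, and DESeq2 called 0). The summed skeletal muscle markers named above had a higher median in A. cahirinus than in the mice in every group. At 24 h, wild libraries reached 935.1 CPM untreated and 1352 CPM after 10 Gy, above the lowest A. cahirinus ones (859.8 and 1052 CPM). The part of these markers in the differences between populations was not tested.

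**Figure D4:**
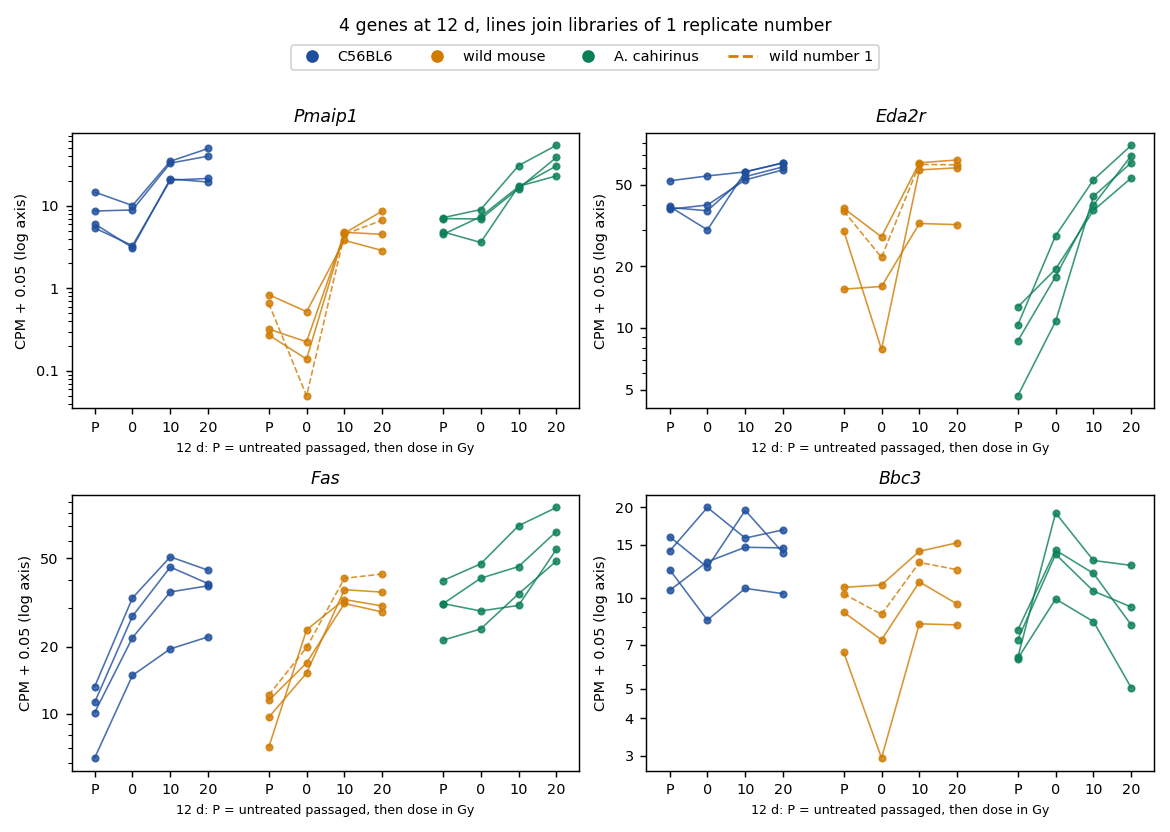
CPM plus 0.05 on a log axis for Pmaip1, Eda2r, Fas and Bbc3 at 12 d in untreated passaged (P), untreated, 10 Gy and 20 Gy libraries. Lines join libraries of 1 number, and the dashed line is wild number 1. Fas is lower in passaged than in unpassaged untreated mouse cultures, and Bbc3 in A. cahirinus is highest in the untreated unpassaged group.

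The dose step from 10 to 20 Gy moved few of the genes. Unpaired, edgeR called 0 of them in all 6 comparisons, in which the number with an unadjusted p under 0.05 was 0, 0 and 2 at 24 h and 1, 0 and 3 at 12 d in C56BL6, wild mice and A. cahirinus. Over all genes it called 0.457% at 12 d in A. cahirinus and 0% in each of the other 5 comparisons. DESeq2 called 1 at 12 d in A. cahirinus and 0 elsewhere. In the paired fits, Pmaip1 was higher after 20 Gy in C56BL6 at 24 h (log2 0.37, SE 0.058, adjusted p = 0.00151; 1 of 10, 1.11% of all genes). At 24 h in A. cahirinus, Eda2r (log2 0.31, SE 0.047, adjusted p = 0.00371) and Aen (log2 0.23, SE 0.043, adjusted p = 0.0145) were higher (2 of 9, 0.272%). At 12 d in A. cahirinus, 4 of 9 were higher (8.26%). These were Pmaip1 (log2 0.85, SE 0.13, adjusted p = 0.00523), Fas (log2 0.54, SE 0.099, adjusted p = 0.00978), Eda2r (log2 0.62, SE 0.082, adjusted p = 0.00293) and Aen (log2 0.46, SE 0.11, adjusted p = 0.026). In wild mice the paired edgeR fit called 0 of the 10 at 24 h (0% of all genes in either direction; 0 had an unadjusted p under 0.05) and at 12 d (0.257%; 0). In C56BL6 at 12 d it also called 0 of 10 (0.297%; 3 had an unadjusted p under 0.05).

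The 12 d series also sets 2 untreated groups side by side, one of them labelled passaged. Fas separated them in mice. Passaged C56BL6 libraries had 6.27, 13.2, 10.1 and 11.2 CPM, each below every unpassaged untreated library, whose range was 14.8 to 33.2 CPM (log2 -1.25, SE 0.29, adjusted p = 0.00849). In wild mice, passaged libraries had 12.1, 7.01, 11.4 and 9.59 CPM, again below the unpassaged range of 15.2 to 23.8 CPM (log2 -0.92, SE 0.22, adjusted p = 0.0379, and 0.079 in the paired fit without number 1). With 1 number left out, the unpaired adjusted p was 9.11e-04 to 0.0517 in C56BL6 and 0.0478 to 0.198 in wild mice. In A. cahirinus passaged libraries had 31.2, 39.7, 31.3 and 21.4 CPM, which overlapped with the unpassaged ones (paired log2 -0.19, SE 0.084, adjusted p = 0.0876). The difference between populations in this change was not tested. Among the 10 genes, C56BL6 had 1 higher and 1 lower in passaged cells (Apaf1 and Fas; 24.1% and 25.5% of all genes), or 5 and 2 paired (29.3% and 30.8%). The unpaired shares and the paired share that fell are below those of all genes. Wild mice had 0 of 8 higher and 1 lower (Fas; 5.51% and 5.2%), or 1 and 1 paired (15.1% and 16.8%). The paired wild shares are near those of all genes.

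In A. cahirinus, 3 of 9 genes fell and 1 rose in passaged cells (13.6% and 12.1% of all genes). In the paired fit 5 fell and 2 rose (26.3% and 23.2%). In both fits the share that rose is near that of all genes. Passaged libraries had 7.23, 6.25, 7.78 and 6.3 CPM of Bbc3 (log2 -1.07, SE 0.18, adjusted p = 0.0052). None of these overlapped with the unpassaged range of 9.87 to 19.1 CPM. Apaf1 (log2 -0.66, SE 0.15, adjusted p = 0.0151) and Phlda3 (log2 -0.49, SE 0.14, adjusted p = 0.0338) also fell, and Bax rose (log2 0.34, SE 0.10, adjusted p = 0.04). In the paired fit Eda2r (log2 -1.09, SE 0.13, adjusted p = 3.53e-04) and Aen (log2 -0.18, SE 0.065, adjusted p = 0.0476) fell and Tnfrsf10b rose (log2 0.54, SE 0.088, adjusted p = 0.0015). All 4 unpaired calls were lost without number 1.

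Against passaged cells instead of unpassaged ones, the 20 Gy groups at 12 d had the same irradiated libraries. In C56BL6 4 of 10 were higher (Pmaip1, Fas, Eda2r and Phlda3; 20.4% of all genes), or 7 paired (28.3%). Wild mice had 3 of 10 higher (Pmaip1, Fas and Phlda3; 4.39%), or 7 paired (19.7%), and Apaf1 fell in the paired fit (18.3% of all genes lower; adjusted p = 0.0376, and 0.118 without number 1). In wild mice Pmaip1 and Perp again passed the expression filter only through the irradiated libraries. In A. cahirinus 6 of 9 were higher in both fits (Pmaip1, Fas, Eda2r, Apaf1, Aen and Phlda3; 19.5% and 28%). The calls of Bbc3 and Apaf1 thus depended on the reference in A. cahirinus in the paired fit. There, Apaf1 was higher against passaged cells and Bbc3 was not called, while both fell against unpassaged cells. Unpaired, against passaged cells, Bbc3 had a log2 difference of 0.38 (SE 0.26), adjusted p = 0.266 and Apaf1 one of 0.41 (SE 0.14), adjusted p = 0.0418. Neither gene was called unpaired against unpassaged cells. Fas in irradiated cells was 3.44-fold the passaged level in C56BL6 (1.78, adjusted p = 0.00135) and 3.49-fold in wild mice (1.80, adjusted p = 0.00577).

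Levels per length, as RPKM in untreated 24 h cells, ordered the genes within each table. In C56BL6, Phlda3 (85.2 ± 11 RPKM, SD, n = 4) and Bax (46.4 ± 7.59) were highest, ahead of Aen (13.9 ± 1.83) and Tnfrsf10b (12.4 ± 1.24), which did not differ beyond their spread. Eda2r (7.95 ± 0.928), Fas (5.77 ± 1.84) and Apaf1 (5.49 ± 0.464) followed. Fas did not differ from Eda2r, Apaf1, Bbc3 or Pmaip1 beyond their spread. Bbc3 (4.2 ± 0.695) and Pmaip1 (3.4 ± 1.61) had the lowest means, and Perp (20.8 ± 37.3) had a spread wider than its mean. Wild mice had Phlda3 (57.2 ± 15.7 RPKM) and Bax (37.2 ± 4.37) highest. Pmaip1 (0.82 ± 1.1) had the lowest mean there, within the spread of Perp (3.1 ± 4.13). In A. cahirinus, Bax (118 ± 13.3 RPKM) was above Phlda3 (80.8 ± 3.27). Tnfrsf10b (25.4 ± 7.41), Fas (10.9 ± 3.02), Aen (5.87 ± 0.254) and Apaf1 (3.11 ± 0.107) followed. Pmaip1 (1.62 ± 0.379), Eda2r (1.57 ± 0.563) and Bbc3 (1.45 ± 0.386) did not differ beyond their spread. Gene lengths differ between the tables, for Bbc3 2124 bp in mouse and 4030 bp in A. cahirinus, so levels were not compared across species.

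Other genes of the pathway were read from 3 lists. These lists were chosen with earlier results of these data known. Of 20 other p53 targets, after 20 Gy at 24 h, 2 rose in C56BL6 unpaired (10 paired, with 1 lower), 0 in wild mice (12 paired) and 9 in A. cahirinus (12 paired). The shares of all genes higher were 0.0826%, 0% and 0.89% unpaired and 8.2%, 7.36% and 13.3% paired. Cdkn1a, the inhibitor of cyclin-dependent kinases, went from a mean of 331.8 to 802.3 CPM in A. cahirinus (adjusted p = 0.00311). Pidd1, which drives caspase-2 activation, went from 14.75 to 33.5 CPM in C56BL6 (adjusted p = 0.0307). At 12 d, 9 rose and 1 fell in C56BL6, 0 passed in wild mice (14 higher and 1 lower paired), and 11 rose and 1 fell in A. cahirinus. At 12 d, 13% of all genes rose and 13.6% fell in C56BL6 unpaired, 13.8% and 18.1% in A. cahirinus, and 7.66% and 7.79% in wild mice paired. Sesn1 was lower at 12 d in each population in the paired fits (adjusted p = 0.000189, 0.0211 and 0.00716 in C56BL6, wild mice and A. cahirinus). The median log2 change of this list at 12 d was 0.426, 0.744 and 0.575, beside -0.0134, -0.00835 and 0.00256 over all genes.

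The partners of the death receptors and of the mitochondrial pathway moved less uniformly. Of 9 receptor partners, 7 were tested. At 12 d after 20 Gy, 2 rose and 1 fell in C56BL6 and 1 rose in A. cahirinus, unpaired, while in wild mice 2 rose in the paired fit. Cflar, which encodes the caspase-8 inhibitor FLIP, went from 131 to 231.4 CPM in C56BL6 at 12 d (adjusted p = 0.00221), and from 11.38 to 9.916 CPM in A. cahirinus (adjusted p = 0.229). Bid, the substrate of caspase-8 that links both pathways, went from 13.79 to 26.16 CPM in C56BL6 (adjusted p = 0.00409). Of 20 mitochondrial partners, 17 were tested at 12 d. In C56BL6 3 rose and 6 fell, and in A. cahirinus 4 rose and 3 fell, unpaired. In wild mice 2 rose and 1 fell in the paired fit. For both lists the background is the 12 d shares just given, 13% higher and 13.6% lower in C56BL6 and 13.8% and 18.1% in A. cahirinus.

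Bcl2l1 and Bmf passed the test in all 3 populations at 12 d in at least 1 of the fits, in opposite directions. Bcl2l1, which encodes the antiapoptotic BCL-XL, rose in C56BL6 from 56.78 to 128.9 CPM (log2 1.20, adjusted p = 0.00364) and in A. cahirinus from 47.09 to 66.96 CPM (log2 0.53, adjusted p = 0.00199). In wild mice it was 41.48 and 109 CPM, past the threshold in the paired fit only (adjusted p = 0.0029). Bmf, a BH3-only death activator, fell in C56BL6 from 30.33 to 3.974 CPM (log2 -2.92, adjusted p = 0.0021) and in A. cahirinus from 14.96 to 7.437 CPM (log2 -0.99, adjusted p = 0.0384). Wild mice had 22.47 and 2.103 CPM of Bmf, again past the threshold in the paired fit (adjusted p = 0.00819).

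The genes whose pattern was most like that of the members included the p53 targets Cdkn1a, Mdm2, Ccng1 and Zmat3. The profile of a library was the mean, over the members tested in its population, of log2 CPM minus the mean of the same culture number and time. The 28 libraries of each population and 11966 genes, members included, were used. The 5 genes outside the members with the highest minimum Pearson r were Cdkn1a, Mdm2, Ccng1, Inka2 and Zmat3. Their r was 0.92 to 0.95 in C56BL6, 0.92 to 0.97 in wild mice and 0.94 to 0.99 in A. cahirinus. The libraries share doses, cultures and batches, so these values describe likeness over the same treatments only. The members themselves differed in likeness to their mean profile, which each of them enters: r was 0.88 to 0.99 for Pmaip1 over the 3 populations, but 0.18, 0.056 and 0.44 for Apaf1 in C56BL6, wild mice and A. cahirinus, and 0.31 for Bbc3 in A. cahirinus.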

How the data were processed

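RNA was measured by stranded mRNA sequencing of 84 libraries. The deposited tables hold raw counts per gene made by the authors with featureCounts 2.0.3, per the file headers, on GRCm39 with Ensembl 108 for mice and on an A. cahirinus assembly by gene name, with no strand setting. HISAT2 and Trim Galore are named in the submitters' processing notes. A gene length, of unit other, is deposited beside the counts and gave RPKM. Bax shares 192 bp with Gm45808 in the mouse annotation, and Apaf1 2 bp with Ikbip in A. cahirinus.

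Counts were tested with edgeR 4.0.16 in R 4.3.3 (filterByExpr, TMM, quasi-likelihood test, Benjamini-Hochberg adjustment over all genes tested, threshold 0.05), each fit holding the groups compared. Interactions gave differences between populations. The alternatives were a replicate block, RLE size factors, no expression filter, DESeq2 1.42.0, 1 fit over every group of a population at a given time, and each number left out. Replicate numbers pair the samples, since each number carries 1 animal code within a population and same-numbered libraries correlated (lowest r 0.42). Replicates differed by 7.95 to 573 times the sampling variance, so no pair of libraries of a group agreed within sampling noise. Gene IDs matched a GENCODE symbol for 56236 of 56980 mouse rows.

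All 10 genes are named by rule. Some genes of the partner lists that the rule would name are not reported here. The 5 genes of most like pattern were ranked by their lowest r over the 3 populations. The genes, the lists of pathway genes and the cell type markers were chosen with earlier results of these data known. Marker lists whose summed levels are not given above had 0.236 to 30.3 CPM (endothelial), 1.242 to 48.46 CPM (leukocyte), 0.496 to 4.041 CPM (melanocyte) and 7.54 to 486.9 CPM (pericyte). Intervals of counts cover counting error only.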

Additional observations from a re-analysis of the deposited data

Results flagged for a closer look

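Among 210 sets of 4 libraries (10 genes in 21 groups), 23 held a library whose distance from its nearest neighbour exceeded Dixon's critical share of the range of the group, and chance alone flags about 1 group in 20. C56BL6 number 1 stood apart for Perp in all 7 of its groups: 150, 127 and 127 CPM at 24 h after 0, 10 and 20 Gy, and 133, 210, 95 and 122 CPM at 12 d in passaged, untreated, 10 Gy and 20 Gy cells. The other 3 libraries of those groups reached at most 21.8 CPM. The same libraries held the keratinocyte markers Krt5, Krt14 and Dsg3 at the levels given above.

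The wild 10 Gy library number 1 at 24 h stood apart for Bax (222 CPM, the others 73.2 to 80.7) and for Apaf1 (18.3 CPM, the others 49 to 52.4). Wild number 1 was also apart for Pmaip1 in untreated cells at 24 h, with 6.73 CPM against 0.288 to 1.2. In A. cahirinus, Pmaip1 was 3.91 CPM in number 2 after 10 Gy at 24 h against 5.18 to 5.3, and 30.6 CPM in number 1 after 10 Gy at 12 d against 16.1 to 17.1. Tnfrsf10b was 81.3 CPM in A. cahirinus number 2 after 20 Gy at 12 d, against 39.1 to 41.2.

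Number 2 of untreated C56BL6 at 12 d stood above the others for Apaf1 (45.3 CPM against 38.8 to 39.3), Aen (87.4 CPM against 53.4 to 56.5) and Phlda3 (214 CPM against 138 to 147), and in passaged cells for Eda2r (52.1 CPM against 37.9 to 39.1). Number 2 of untreated wild cells at 12 d stood below the others for Aen (18.6 CPM against 43.3 to 47.1) and Phlda3 (69.1 CPM against 77.7 to 78.9). Wild number 3 at 12 d was low for Eda2r after 10 Gy (32.3 CPM against 59 to 63.9) and 20 Gy (31.9 CPM against 60.4 to 65.9), and high for Perp in passaged cells (4.55 CPM against 0.0742 to 0.65). Phlda3 was 136 CPM in A. cahirinus number 2 in passaged cells at 12 d, against 105 to 109.

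The change after 20 Gy differed between A. cahirinus and C56BL6 by a test of the difference itself for Eda2r at 24 h (log2 1.43, SE 0.273, adjusted p = 0.0107), Aen at 24 h (0.825, SE 0.113, adjusted p = 0.00222), Phlda3 at 24 h (0.573, SE 0.131, adjusted p = 0.031) and Eda2r at 12 d (1.2, SE 0.326, adjusted p = 0.0205).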

How the results depend on the processing

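Counts of the genes past the threshold, given here for each comparison, moved most with pairing. With a block for the replicate number, counts changed as follows. It was 1 for C56BL6 24 h 20 Gy against 10 Gy. It was 2 for A. cahirinus 24 h 20 Gy against 10 Gy and wild 12 d passaged against 0 Gy. It was 3 for 24 h 20 Gy response A. cahirinus against wild and 12 d 20 Gy response A. cahirinus against wild. It was 4 for A. cahirinus 12 d 20 Gy against 10 Gy and 12 d 20 Gy response A. cahirinus against C56BL6. It was 6 for C56BL6 24 h 20 Gy against 0 Gy, C56BL6 24 h 10 Gy against 0 Gy, A. cahirinus 24 h 10 Gy against 0 Gy and 24 h 20 Gy response A. cahirinus against C56BL6. It was 7 for A. cahirinus 24 h 20 Gy against 0 Gy, C56BL6 12 d 20 Gy against 0 Gy, C56BL6 12 d 10 Gy against 0 Gy, C56BL6 12 d passaged against 0 Gy, C56BL6 12 d 20 Gy against passaged and A. cahirinus 12 d passaged against 0 Gy. It was 8 for wild 12 d 20 Gy against 0 Gy and wild 12 d 20 Gy against passaged. It was 9 for wild 12 d 10 Gy against 0 Gy and A. cahirinus 12 d 10 Gy against 0 Gy. It was 10 for wild 24 h 20 Gy against 0 Gy. The block changed no other count by more than 1.5 times. With the block and without number 1, chosen after the 12 d wild libraries 1 and 4 were seen to match, the count moved as follows. It was 0 for wild 12 d passaged against 0 Gy. It was 2 for 12 d 20 Gy response A. cahirinus against wild. It was 3 for wild 12 d 20 Gy against 0 Gy, 24 h 20 Gy response A. cahirinus against wild and 24 h 20 Gy response wild against C56BL6. It was 4 for wild 12 d 10 Gy against 0 Gy. It was 7 for wild 12 d 20 Gy against passaged. It was 10 for wild 24 h 20 Gy against 0 Gy and wild 24 h 10 Gy against 0 Gy. With DESeq2 in place of edgeR the count moved. It was 1 for wild 24 h 20 Gy against 0 Gy and A. cahirinus 12 d 20 Gy against 10 Gy. It was 2 for 12 d 20 Gy response A. cahirinus against wild. It was 3 for C56BL6 24 h 10 Gy against 0 Gy and A. cahirinus 12 d 10 Gy against 0 Gy. It was 5 for C56BL6 24 h 20 Gy against 0 Gy. It was 6 for A. cahirinus 24 h 10 Gy against 0 Gy, wild 12 d 20 Gy against 0 Gy and wild 12 d 10 Gy against 0 Gy. With every group of a population at a given time fitted together it moved. It was 2 for C56BL6 24 h 10 Gy against 0 Gy. It was 3 for C56BL6 24 h 20 Gy against 0 Gy and A. cahirinus 12 d 10 Gy against 0 Gy. It was 5 for wild 12 d 10 Gy against 0 Gy. It was 6 for wild 12 d 20 Gy against 0 Gy and C56BL6 12 d passaged against 0 Gy. Without the expression filter it moved. It was 0 for wild 12 d passaged against 0 Gy. It was 1 for C56BL6 12 d passaged against 0 Gy. RLE size factors in place of TMM moved none of the 32 counts by more than 1.5 times. Leaving out each number in turn gave ranges. The range was 0 to 1 for C56BL6 24 h 10 Gy against 0 Gy, wild 12 d 10 Gy against 0 Gy, wild 12 d passaged against 0 Gy and 24 h 0 Gy wild against C56BL6. The range was 0 to 2 for C56BL6 24 h 20 Gy against 0 Gy, wild 12 d 20 Gy against 0 Gy, 24 h 20 Gy response A. cahirinus against C56BL6, 12 d 20 Gy response A. cahirinus against C56BL6 and 12 d 0 Gy wild against C56BL6. The range was 0 to 3 for A. cahirinus 12 d 20 Gy against 10 Gy. The range was 0 to 4 for A. cahirinus 12 d 10 Gy against 0 Gy and wild 12 d 20 Gy against passaged. The range was 0 to 5 for A. cahirinus 24 h 10 Gy against 0 Gy, C56BL6 12 d 10 Gy against 0 Gy and C56BL6 12 d passaged against 0 Gy. The range was 0 to 6 for C56BL6 12 d 20 Gy against 0 Gy and A. cahirinus 12 d passaged against 0 Gy. The range was 1 to 4 for A. cahirinus 24 h 20 Gy against 0 Gy. The range was 3 to 9 for A. cahirinus 12 d 20 Gy against 0 Gy.

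Of 542 refitted values of 58 gene changes at 20 Gy, 423 kept their direction and side of the threshold, 27 lost the call, 82 gained one and 10 changed sign. Those that changed sign were near 0 or were Perp. With 1 number left out, Fas in C56BL6 at 24 h ranged from -0.0239 to 0.039 and Perp from -0.216 to 0.392, and Perp was 0.1 with the block. At 12 d in C56BL6 the ranges were -0.000838 to 0.208 for Bbc3 and -0.586 to 3.06 for Perp, which was 1.8 with the block. Apaf1 in wild mice at 12 d ranged from -0.0805 to 0.0585 (0.033 without number 1), and was 0.0315 with the block and 0.0872 with the block and without number 1. The cause was not tested for these changes. Depth limits Perp in A. cahirinus, with 0 to 34 counts per library, and Perp and Pmaip1 in untreated wild cells at 12 d, with 0 to 40 and 0 to 14 counts. It also limits Perp in wild number 2 at 24 h, with 0 to 1 counts, and Pmaip1 there in untreated cells, with 9 counts.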
